A study of Mus musculus with 2 samples.

Results

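Genes whose products remodel nucleosomes or write, read and erase chromatin marks were examined in the cerebral cortex of wild type and Pax6-/- mice. Members were all genes on the array whose single platform symbol matched a fixed name pattern (Hdac, Sirt, Smarc, Dnmt, Chd, Cbx, Hmga, Hmgb, Hmgn, Ezh, Eed, Suz12, Suv39, Kdm, Kmt, Kat, Mbd, Rbbp, Baz, Brd, Ring1, Bmi1), without the 1 match on the Y chromosome. This gave 71 genes measured by 96 probe sets, of 8252 genes and 10855 probe sets with a single symbol. A further 4 probe sets carry a matching symbol together with that of another gene and were left out.

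The RNA came from the cortex of NMRI mouse embryos at stage E14.5. One group carried no genetic modification, the other was homozygous for a loss of Pax6, and the labels do not name the allele. Each genotype was represented by 1 Affymetrix array of MAS5 signals. RNA was taken from 3 embryos of each genotype by the study's design, and pooling on an array is neither stated nor denied in the sources used here. With 1 array per genotype no value below has a replicate check, and no difference was tested.

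DNA in the nucleus is wrapped around histones, and several families of protein complexes set how accessible it is. Remodellers such as BAF, ISWI and NuRD use ATP to move or evict nucleosomes, acetyltransferases and deacetylases add and remove acetyl groups, and Polycomb, heterochromatin and DNA methylation proteins keep genes silent. In the embryonic cortex, BAF subunits are exchanged as progenitors become neurons, and PRC2 and the DNA methyltransferases are known to restrain the timing of neurogenesis. Pax6 is itself a transcription factor of cortical radial glia, and its protein has been described as a partner of BAF complexes in neural progenitors.

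Few of these genes differed strongly between the arrays. Of the 71 genes, 63 lay above the signal filter, a mean signal of about 166, and 8 lay below it. In the mutant, 0 of the 63 were 2-fold higher, and 2, Sirt3 and Kdm5b, were 2-fold lower or more. Past 2-fold lay 10.5% of all 5589 genes above the filter, 5.05% on the higher and 5.46% on the lower side, against 3.17% of the chromatin genes. Ratios here are log2(signal + 81.5) in the mutant minus the same in wild type, centred on the median, so that they understate the difference of dim genes.

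In direction the set was split, with 28 genes higher and 35 lower and a median log2 ratio of -0.07. Over all genes above the filter, 48.4% were higher and the median was -0.02. The chromatin genes had an SD of 0.48 on the log2 scale, against 0.62 over all genes, and ran from -1.14 to 0.92. These counts cover only the genes that passed the filter, and 4 of them passed through the mutant signal alone and 4 through the wild type signal alone.

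The only error these arrays give is how far probe sets for 1 gene disagree, which leaves out all variation among embryos. This technical spread, the SD of the difference between both probe sets divided by the square root of 2, was 0.70 for signals below 293, 0.56 up to 535 and 0.37 above that. Of the 63 genes, 26 lay further from 0 than the spread of their signal class, 8 of them higher and 18 lower, and the other 37 lay within it. Over all genes, 39.4% lay beyond their spread, against 41.3% of the chromatin genes, so the share was near the background.

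Signal strength moved with the direction of the ratios. In the bright class 59.9% of all genes lay below 0, their median being -0.10, while in the dim class 41.2% did, at a median of 0.20. Of the chromatin genes 17 of 44 were higher in the bright class, a median of -0.11, and 9 of 14 in the dim class, a median of 0.28. In the middle class 2 of 5 were higher, a median of -0.12, against 56.5% and 0.09 for all genes. After loess scaling, which removes a trend of this kind, 33 of the 63 chromatin genes were higher and 30 lower, with a median of 0.02.

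**Figure D1:**
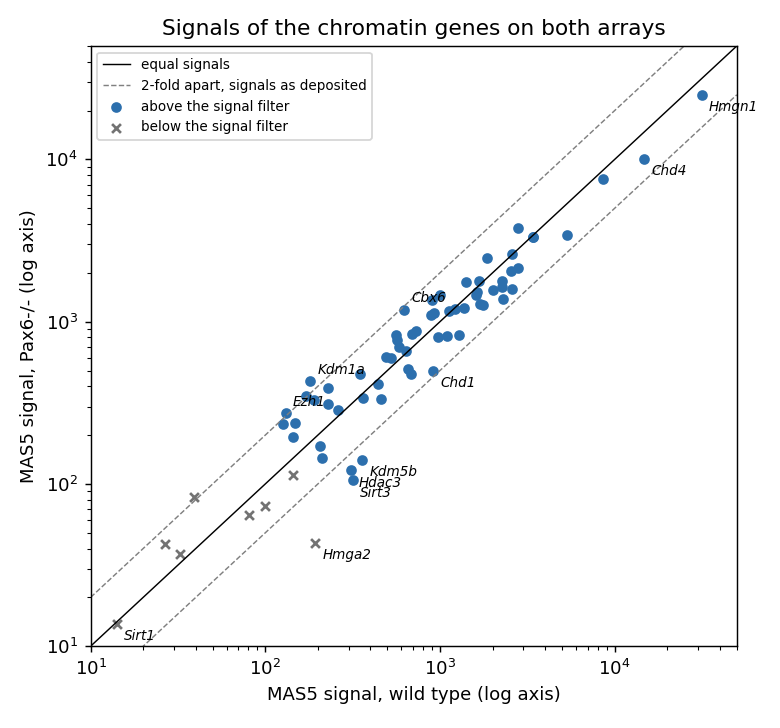
MAS5 signals of the 71 chromatin genes on the wild type array (horizontal, log axis) and the Pax6-/- array (vertical, log axis), 1 point per gene from its brightest probe set. Circles mark the 63 genes above the signal filter and crosses the 8 below it; most circles lie between the dashed 2-fold lines, with Sirt3, Kdm5b and Hdac3 below them and Kdm1a, Ezh1 and Rbbp9 above, since no pseudocount is added here.

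The promoters of 2 genes with low ratios and of the gene with the highest ratio above the filter are shown first, because the enzymes of this set act on such sequences. Of the 71 genes, 59 had an entry among the RefSeq promoter windows (GRCm38.p6), each 300 bases long, from 250 before to 50 after a gene start, with 77 windows in all. The windows shown are those of Sirt3 (chr7:140882260-140882559, minus strand, the one of its 2 windows with the higher CpG ratio), Kdm5b (chr1:134559928-134560227, plus strand) and Kdm1a (chr4:136602674-136602973, minus strand). They are written 5′ to 3′ on the gene's strand, and capitals mark CpG dinucleotides, the target of DNA methyltransferases.

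Sirt3: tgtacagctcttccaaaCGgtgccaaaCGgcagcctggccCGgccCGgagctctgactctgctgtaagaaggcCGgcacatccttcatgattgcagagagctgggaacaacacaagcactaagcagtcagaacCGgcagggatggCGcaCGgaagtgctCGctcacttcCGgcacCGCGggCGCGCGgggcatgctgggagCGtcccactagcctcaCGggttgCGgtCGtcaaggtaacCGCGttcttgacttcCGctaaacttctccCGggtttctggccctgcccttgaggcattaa
Kdm5b: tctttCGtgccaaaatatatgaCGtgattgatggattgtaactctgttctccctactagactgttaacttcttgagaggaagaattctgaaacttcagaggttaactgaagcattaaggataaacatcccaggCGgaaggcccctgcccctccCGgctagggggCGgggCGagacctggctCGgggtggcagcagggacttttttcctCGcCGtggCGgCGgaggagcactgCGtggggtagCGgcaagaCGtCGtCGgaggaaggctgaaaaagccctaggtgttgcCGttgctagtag
Kdm1a: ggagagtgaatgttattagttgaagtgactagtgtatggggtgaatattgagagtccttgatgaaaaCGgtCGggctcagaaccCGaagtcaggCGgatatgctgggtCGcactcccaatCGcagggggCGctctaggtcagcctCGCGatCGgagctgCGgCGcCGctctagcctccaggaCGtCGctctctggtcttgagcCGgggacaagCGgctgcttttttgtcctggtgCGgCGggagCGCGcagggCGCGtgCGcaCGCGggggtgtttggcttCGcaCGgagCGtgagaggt

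The Sirt3 window holds 23 CpG dinucleotides, that of Kdm5b 17 and that of Kdm1a 29. The ratio of observed to expected CpG was 0.82, 0.78 and 1.08. Windows of this richness were common in the set: 63 of the 77 windows, or 81.8%, had a ratio above 0.6, against 61.0% of the 8413 windows of all genes on the array. The median was 24 CpG per window in the set and 18 over genes on the array. All 3 of these windows were above 0.6, and methylation itself was not measured.

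The BAF complex, the SWI/SNF remodeller of mammalian cells, had 8 members on the array, all above the filter, with 5 lower, 3 higher and a median of -0.42. Smarca4 (Brg1), the ATPase of BAF in progenitors, gave a wild type signal of 5339 and a mutant signal of 3397 by its brightest probe set (log2 ratio -0.69, beyond the spread of 0.37). Its other probe set, below the filter, gave 24.5 and 254, a log2 ratio of 1.62, so the probe sets of Smarca4 pointed in opposite directions. Smarcc1 (BAF155), a core scaffold subunit, was at 2281 and 1384, a log2 ratio of -0.73. Both genes lie in the bright class, where 59.9% of all genes were lower.

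Smarcb1, the core subunit known as a tumour suppressor, was also lower, with signals of 2789 and 2156 and a log2 ratio of -0.40. The alternative ATPase Smarca2 (Brm) was at 212 and 144, a ratio of -0.43 within the spread of its dim class. It passed the filter through its wild type signal alone. In the opposite direction lay Smarce1, a subunit with an HMG domain, at 901 and 1366 (0.51), and Smarcd1, at 1848 and 2454 (0.35). Brd7, a bromodomain subunit of the PBAF form, was at 0.23 by its brightest probe set and at 0.60 and 0.01 by the others.

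Smarcd2 showed how far the choice of probe set matters. Its brightest probe set gave signals of 678 and 474 (-0.50), while another above the filter gave 293 and 558, a ratio of 0.72. The remaining probe sets were at -0.27 and -0.42. With only probe sets whose identifier has no suffix for shared or mixed probes, 4 of the 8 BAF genes were higher and the median was -0.03.

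The ISWI remodellers space nucleosomes. Smarca5 (Snf2h), their main ATPase in progenitors, was higher by both probe sets, at 560 and 832 (0.46) and at 278 and 348 (0.21). Baz2a, a partner that guides ISWI to ribosomal genes, was at 0.19. Baz1b, the partner also known as WSTF, was nearly equal by its brightest probe set, at 3400 and 3303 (-0.09), but at 1431 and 579 (-1.24) by the other. The ratio of the brighter one turned to 0.15 after loess scaling.

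NuRD joins a CHD remodelling ATPase to histone deacetylases, and of 7 members of the set on the array 6 were above the filter. All 6 were lower, with a median of -0.32, where 51.6% of all genes and 59.9% of bright genes were lower. Outside the name pattern, the NuRD subunit genes Mta2 and Gatad2a were at 979 and 734 (-0.42) and at 939 and 1132 (0.20). Other probe sets of Gatad2a gave -0.02 above the filter and 0.42 and -0.63 below it. Mta2 and Gatad2a are named here after their values were seen. Chd4, the ATPase, had signals of 14684 and 10082, a log2 ratio of -0.58. The histone-binding subunit Rbbp4 was at 1773 and 1273 (-0.50) and the deacetylase Hdac1 at 1704 and 1276 (-0.44), both beyond the spread of 0.37.

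The other members of NuRD differed by less than the spread. Hdac2 was at -0.18, Rbbp7 at -0.20 and Mbd3, the subunit that holds the complex together, at 3397 and 3334 (-0.07). Mbd2 lay below the filter at 100.2 and 73.0. All of these genes but Mbd2 are in the bright class, in which all genes had a median of -0.10. After loess and quantile scaling 5 of the 6 remained lower, Mbd3 turned to 0.17 and 0.15, the median was -0.17 and -0.13, and Chd4 moved to -0.26 and -0.15. The Chd4 probe set carries a suffix for shared probes.

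Among CHD and SNF2 ATPases outside these complexes, Chd1, which follows transcribing polymerase, was the lowest. It had signals of 915 and 496 (-0.83), and over the alternatives it ran from -0.93 to -0.67. Chd7, the gene of CHARGE syndrome, was at 0.21, and Chd8, a gene linked to autism, was at 1665 and 1785 (0.05). Smarcad1 was at -0.29 by its brightest probe set and at 0.58 by the other, and Chd1l was below the filter at 81.2 and 64.7.

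The zinc-dependent deacetylases remove acetyl groups from histones and other proteins. Together with Hdac1 and Hdac2, already counted with NuRD, 6 were above the filter and all 6 were lower, with a median of -0.36. Over all genes 51.6% were lower, and 59.9% in the bright class, which holds all of these but Hdac3. After loess scaling 5 of the 6 were lower and the median was -0.18. Hdac3, the catalytic subunit of the NCoR corepressor complex, had signals of 311 and 121 and a log2 ratio of -0.999, just short of 2-fold and beyond the spread of 0.70. Over the alternatives it ran from -1.41 to -0.62. It passed the filter through its wild type signal alone.

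The class II enzymes, which shuttle between nucleus and cytoplasm or act outside the nucleus, were less far apart. Hdac7 was at 2256 and 1780 (-0.37) and Hdac5 at 2557 and 2051 (-0.35). Hdac6, the tubulin deacetylase, was nearly equal at 2577 and 2630 (-0.02), and it turned to 0.04 with the stricter filter, 0.03 without centring, 0.19 after loess and 0.18 after quantile scaling.

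Sirtuins are deacylases that depend on NAD. Sirt3, the mitochondrial deacetylase, had the lowest ratio of the genes above the filter, with signals of 318 and 105, a 2.21-fold difference (log2 ratio -1.14, spread 0.70). Sirt2, which is mainly cytoplasmic, was at 1098 and 820 (-0.43). Sirt1, the nuclear enzyme best known for acting on histones, gave 14.2 and 13.7, far below the filter, and could not be compared. The Sirt3 ratio ran from -1.65 without a pseudocount to -0.70 with the larger one, and the gene dropped out with the stricter filter.

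**Figure D2:**
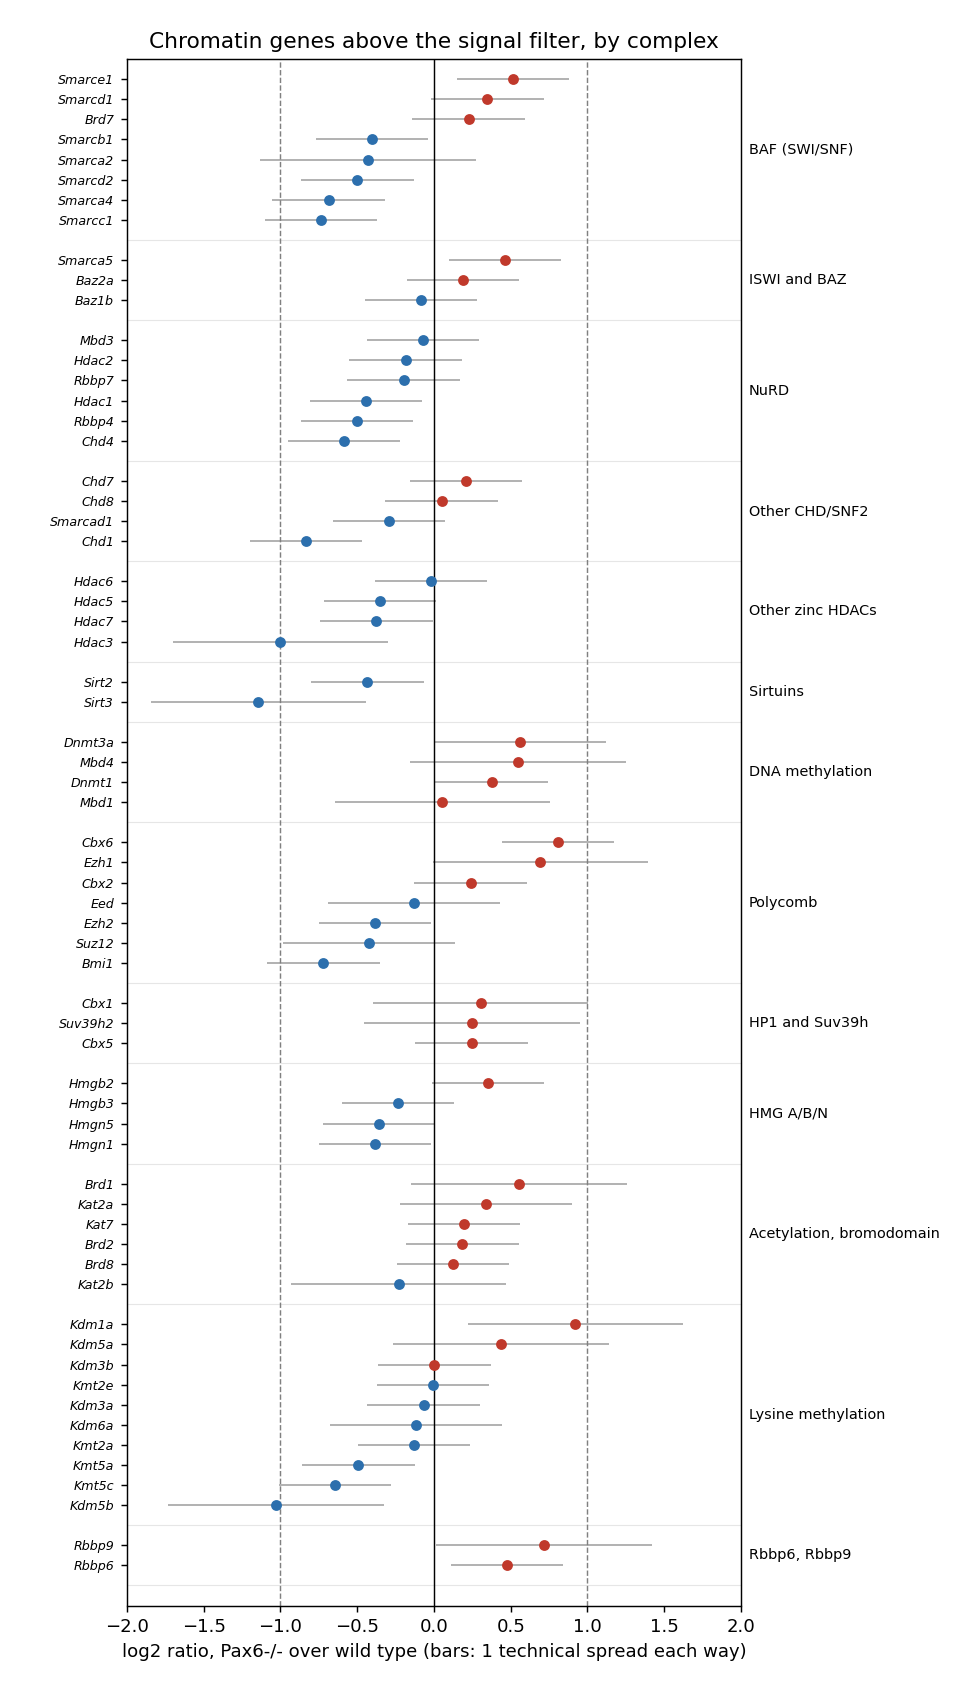
Log2 ratio of Pax6-/- over wild type (horizontal) for the 63 chromatin genes above the signal filter, grouped by complex, red for higher and blue for lower in the mutant. Grey bars span 1 technical spread on each side (0.37 to 0.70 by signal class) and dashed lines mark 2-fold; only Sirt3 and Kdm5b pass the lower line, and 37 of the 63 genes lie within their spread of 0.

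Genes of DNA methylation lay on the higher side. Dnmt1, which copies methylation after replication, had signals of 2813 and 3795, a log2 ratio of 0.38 against a spread of 0.37, and from 0.33 to 0.61 over the alternatives. Dnmt3a, a de novo methyltransferase, was at 230 and 393 (0.56, spread 0.56). Mbd4, a glycosylase that repairs mismatches at methylated CpG, was at 190 and 328 (0.55), and the methyl-CpG binding protein gene Mbd1 at 260 and 285 (0.06). The other probe sets of Dnmt1 and Dnmt3a, below the filter, were at 0.13 and 0.01. All 4 were thus higher, with a median of 0.46, where 48.4% of all genes were higher. In the dim class, which holds Mbd1 and Mbd4, 41.2% of all genes were lower. In the middle class, which holds Dnmt3a, 56.5% were higher, and in the bright class of Dnmt1 59.9% were lower. Mbd1 turned to -0.13 after loess and -0.11 after quantile scaling, and Mbd1 and Mbd4 lay within their spread.

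The heterochromatin genes were higher too, by less than their spread in their brightest probe sets, where 48.4% of all genes were higher. In the dim class, which holds Cbx1 and Suv39h2, 41.2% of all genes were lower. Cbx5 (HP1 alpha) was at 1414 and 1749 (0.25) by its brightest probe set and at 815 and 1135 (0.39, spread 0.37) by the other. Cbx1 (HP1 beta) was at 228 and 313 (0.30), and its other probe set, below the filter, gave 65.4 and 171 (0.74, spread 0.70). Suv39h2, which writes the methyl mark that HP1 proteins bind, was at 145 and 196 (0.25), and passed the filter through its mutant signal alone. After loess scaling the median of the 3 genes was 0.11.

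Polycomb genes were divided in direction within both of their complexes, PRC2 and PRC1. Above the filter, 1 of 4 PRC2 genes and 2 of 3 PRC1 genes were higher. PRC2 writes the repressive methyl mark on histone H3, and its catalytic subunit in cycling cells, Ezh2, was at 1999 and 1564 (-0.38, spread 0.37). Its relative Ezh1, which is known to prevail in cells that no longer divide, was at 131 and 273 (0.69) and passed the filter through its mutant signal alone. The core subunit Eed was nearly equal at 445 and 416 (-0.13). Suz12, the other core subunit, was at 458 and 335 (-0.42), while its other probe sets gave 301 and 355 (0.14) and, below the filter, 71.3 and 249 (1.07).

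PRC1 binds that mark or ubiquitinates histone H2A. Bmi1, a subunit needed for self-renewal of neural stem cells, was at 2575 and 1584, a log2 ratio of -0.72, and ran from -0.77 to -0.54 over the alternatives. Cbx6, one of the chromodomain subunits, was the highest of the bright chromatin genes, at 620 and 1188 (0.81), and its other probe set gave 575 and 876 (0.50). Both Cbx2 probe sets were also above 0, at 0.24 and 0.34. The Polycomb genes above the filter numbered 3 higher and 4 lower, with a median of -0.13, where 51.6% of all genes were lower. Ring1, the ubiquitin ligase, and Cbx7 lay below the filter, at 144 and 114 and at 38.9 and 83.6.

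Promoters of both Dnmt1 and Ezh2 held a motif of the E2F type, which is typical of genes switched on for S phase. TTTCCCGC or TTTGGCGC, searched on both strands, occurred in 6 of the 77 windows of the set (7.79%), against 2.65% of the windows of genes on the array and 1.56% of all 32851 windows. The windows of Dnmt1 (chr9:20952574-20952873, minus strand, 1 of 3 windows) and Ezh2 (chr6:47594981-47595280, minus strand) are shown because their ratios had opposite signs. Capitals mark the motif.

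Dnmt1: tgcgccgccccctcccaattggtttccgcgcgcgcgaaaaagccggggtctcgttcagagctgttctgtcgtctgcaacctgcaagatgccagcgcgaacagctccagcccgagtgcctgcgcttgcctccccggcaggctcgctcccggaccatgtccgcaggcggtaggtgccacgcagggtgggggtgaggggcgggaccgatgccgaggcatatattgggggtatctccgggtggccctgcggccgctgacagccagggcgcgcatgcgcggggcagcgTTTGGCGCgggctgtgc
Ezh2: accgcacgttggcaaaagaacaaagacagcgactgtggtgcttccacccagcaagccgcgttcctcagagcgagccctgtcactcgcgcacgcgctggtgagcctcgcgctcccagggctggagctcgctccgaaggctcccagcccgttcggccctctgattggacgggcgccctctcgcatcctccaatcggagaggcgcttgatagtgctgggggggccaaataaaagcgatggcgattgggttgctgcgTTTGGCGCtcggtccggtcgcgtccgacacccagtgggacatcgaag

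In both windows the motif read TTTGGCGC, at bases 284 to 291 for Dnmt1 and 254 to 261 for Ezh2, where base 251 is the gene start. The other genes with a match were Brd7 (0.23), Smarcd1 (0.35), Kmt5c (-0.64) and Suz12 (-0.42), so genes with the motif were on both sides of 0. A match describes these letters only, and binding was not measured.

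High mobility group proteins are small, abundant proteins that bend DNA or bind nucleosomes. Of 6 on the array 4 were above the filter, 3 lower and 1 higher, where 51.6% of all genes and 59.9% of bright genes were lower. Hmgn1, a nucleosome-binding member, had signals of 31501 and 24928, a log2 ratio of -0.38. Hmgb3, a DNA-bending member, was at 8625 and 7560 (-0.23), and Hmgn5 was at 655 and 512 (-0.36). Hmgb2, which is known to be high in cycling cells, was at 567 and 772 (0.35). After loess scaling Hmgn1 moved to -0.01 and Hmgb3 turned to 0.07, so the direction of these bright genes depended on the scaling.

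Hmga2, an AT-hook protein that favours self-renewal of fetal neural stem cells, was lower on the mutant array, at 193 and 43.5 (-1.18), the lowest ratio of all 71 genes, but its mean signal was below the filter. With no filter its difference counted among 4 chromatin genes at least 2-fold lower. Hmgb4 was near the bottom of the scale at 26.7 and 42.8.

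Acetyltransferases and bromodomain readers were higher in 5 of 6 cases, all within their spread, with a median of 0.19. Over all genes 48.4% were higher. Kat2a (Gcn5), the catalytic subunit of SAGA, was at 348 and 478 (0.34), while its relative Kat2b (PCAF) was at 206 and 171 (-0.23). Kat7, which acetylates histones at replication origins, was at 0.20 and 0.09 by its probe sets. Among the readers of acetylated histones, Brd1 was at 127 and 234 (0.56), Brd2 at 581 and 696 (0.19) and Brd8 at 526 and 601 (0.12). Brd1 passed the filter through its mutant signal alone. Brd3 lay below the filter at 32.5 and 36.9. Outside the name pattern, the acetyltransferase gene Crebbp was lower, at 857 and 516 (-0.70, spread 0.37). Hat1, another acetyltransferase gene, was higher, at 1361 and 1714 (0.27), and at 1.49 by its other probe set. The coactivator gene Ncoa1 was at 293 and 424 (0.38), and Ncoa3, below the filter, at 146 and 31.4 (-1.05). These genes outside the pattern were also named after their values were seen. The group of 6 kept its median between 0.14 and 0.25 over the alternatives.

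Of 10 lysine methyltransferases and demethylases, all above the filter, 7 were lower and 3 higher, at a median of -0.09. Over all genes 51.6% were lower, and 59.9% in the bright class. After loess scaling 5 of the 10 were higher and 5 lower, with a median of 0.00. The demethylases held the highest ratio of the whole set and 1 of its lowest. Kdm5b, which removes the active methyl mark of promoters, had signals of 359 and 141, a 2.04-fold difference (log2 ratio -1.03, spread 0.70), and from -1.40 to -0.66 over the alternatives. Kdm1a (LSD1), the demethylase of the CoREST complex, had the highest ratio of the set, at 181 and 431 (0.92, spread 0.70), and from 0.61 to 1.20. Kdm5a was at 148 and 239 (0.44) and passed the filter through its mutant signal alone. Kdm3a, Kdm3b and the X-linked Kdm6a lay close to 0, at -0.07, 0.00 and -0.12. The 3 lowest genes above the filter, Sirt3, Kdm5b and Hdac3, each had 1 probe set, and their mutant signals of 105, 141 and 121 were all below the filter level.

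Among lysine methyltransferases, Kmt5a, which methylates histone H4 during the cell cycle, was at 2265 and 1642 (-0.49). Kmt5c, which acts on the same residue in heterochromatin, was at 1288 and 825 (-0.64) by its brightest probe set, against 167 and 325 (0.67) by the other. Kmt2a (Mll1), which writes the active promoter mark, was nearly equal by both probe sets, at -0.13 and -0.25, and Kmt2e was at -0.01. Rbbp6 and Rbbp9, which the name pattern takes in but which act mainly outside chromatin complexes, were at 0.48 and 0.72, and at least 1 other probe set of each gave the opposite sign.

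Different probe sets of 1 gene often gave different ratios. Of the 71 genes, 19 had several probe sets, which shared a sign in 12 and did not in 7 (Kmt5c, Rbbp6, Rbbp9, Smarca4, Smarcad1, Smarcd2 and Suz12). Where 2 or more of them passed the filter, in 13 genes, the 2 brightest shared a sign in 8, or 61.5%. Over all 896 such genes on the array the share was 54.4%. Of the 12 genes with a shared sign, Brd7, Cbx1, Cbx2, Cbx5, Cbx6, Dnmt1, Dnmt3a, Kat7 and Smarca5 were higher by every probe set. Baz1b, Kat2b and Kmt2a were lower by every probe set.

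**Figure D3:**
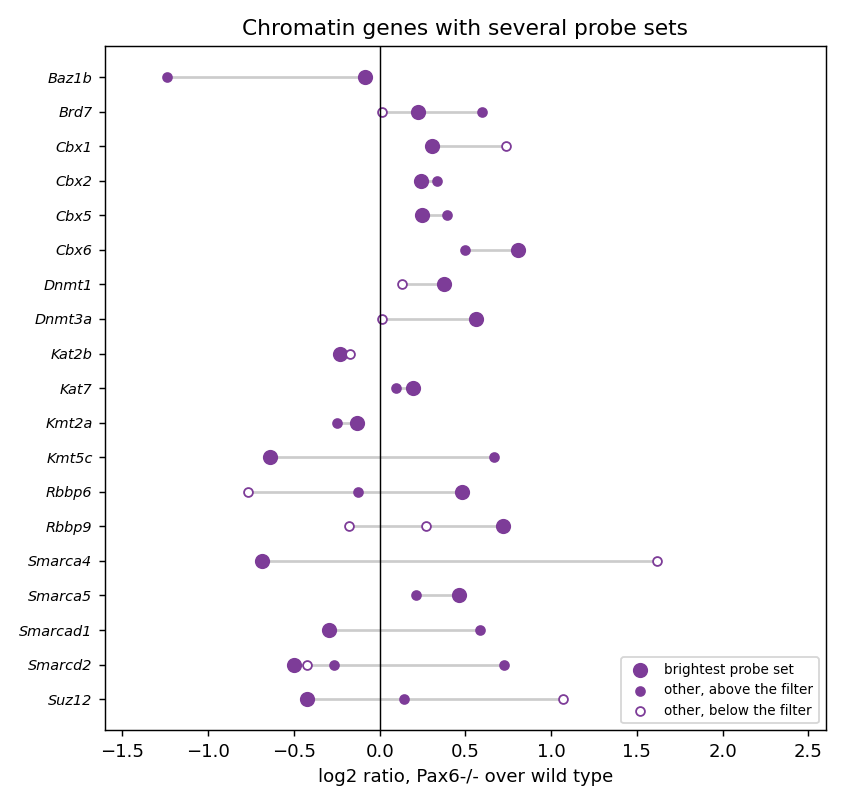
Log2 ratio of Pax6-/- over wild type (horizontal) for every probe set of the 19 chromatin genes that have several. Large filled points are the brightest probe set, small filled points others above the signal filter and open points those below it; the line joins the probe sets of a gene and crosses 0 in 7 of the 19 genes, most widely for Smarca4, at -0.69 and 1.62.

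Chromatin genes outside the name pattern, from 2 lists, lay on the lower side in 13 of 19 and 21 of 31 cases, where 51.6% of all genes and 59.9% of bright genes were lower. The first list held 19 genes above the filter, namely Atrx and further subunits of BAF, NuRD, SIN3, CoREST and INO80 complexes. Of these 19, 13 were lower, 6 higher and 0 were 2-fold apart, with a median of -0.22. Sin3b, a corepressor scaffold, was at -0.59 by its brightest probe set and at -0.09 by another, and Actl6b, the actin-like subunit of neuronal BAF, at 804 and 577 (-0.47), while its progenitor counterpart Actl6a was at 959 and 1034 (0.05). These genes were named after their values were seen. After loess scaling 12 of the 19 were lower and the median was -0.14.

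Of 31 other modifiers and histone chaperones above the filter, 21 lay below 0 and 10 above it. After loess scaling 18 were lower and the median of -0.24 moved to -0.05. Men1, which encodes menin, a partner of Kmt2a, had signals of 1687 and 637, a log2 ratio of -1.35 against a spread of 0.37. Ash2l, a core subunit of the Kmt2 methyltransferase complexes, was at 498 and 166 (-1.27, spread 0.56). The remaining core subunits on the array, named after their values were seen, were Wdr5 at 1743 and 1124 (-0.64) and Dpy30 at 1285 and 1005 (-0.38). Each of these 4 genes had 1 probe set and was lower under all alternatives that measured it, with Men1 between -1.46 and -1.16.

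The histone chaperone gene Asf1b, which is active during S phase, was the only one of these 31 genes at least 2-fold higher, at 70.7 and 462. It passed the filter through its mutant signal alone. Its wild type signal lay below the pseudocount, and its log2 ratio of 1.79 ran from 1.09 to 2.66 over the alternatives.

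Markers of the cells in the tissue moved on the same arrays. Pax6 itself was at 1169 and 447 (-1.29), Tbr1 and Neurod6 were lower, Sox2 was higher, and Emx1, Emx2 and Lhx2 had no probe set with a single symbol. Of 17 genes of cycling cells above the filter 15 were higher, and all 18 on the array had signals summing to 30637 (wild type) and 38193 (mutant). Of 13 neuronal genes above the filter 12 were lower, and the 16 on the array summed to 40549 and 32088. Of 6 subpallial genes above the filter 5 were higher, and the 12 on the array summed to 1842 and 12673, mostly from Dlx1 (5982 in the mutant) and Dlx2 (4180). Of these 6, 2 (Dlx1 and Dlx5) passed the filter through the mutant signal alone. Among all genes above the filter 48.4% were higher. Without the filter, and centred on all probe sets, 13 of 18 cycling genes, 3 of 16 neuronal and 9 of 12 subpallial genes were higher. The share over all genes was then 48.0%. The lists of other cells were mixed in direction, with 5 of 8 meningeal, 2 of 4 erythroid, 5 of 7 microglial and 2 of 4 endothelial genes above the filter higher. Of these genes, 3 meningeal, 1 erythroid and 1 microglial passed through the mutant signal alone, and 2 microglial through the wild type signal alone. Without the filter 6 of 12 meningeal, 2 of 7 erythroid, 7 of 10 microglial and 6 of 9 endothelial genes were higher. Twist2 was at 1.52 and Igf2 at -1.04 among meningeal genes, and Csf1r at 1.54 and Laptm5 at -1.36 among microglial ones. Sums over the meningeal list were 6723 and 6848, the erythroid list 15696 and 13167, the microglial list 2380 and 3996 and the endothelial list 1834 and 2248, and no marker signal was 0. The part of these shifts in the chromatin values was not tested. In such tissue RNA, fewer cells of a type and less RNA per cell cannot be told apart.

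**Figure D4:**
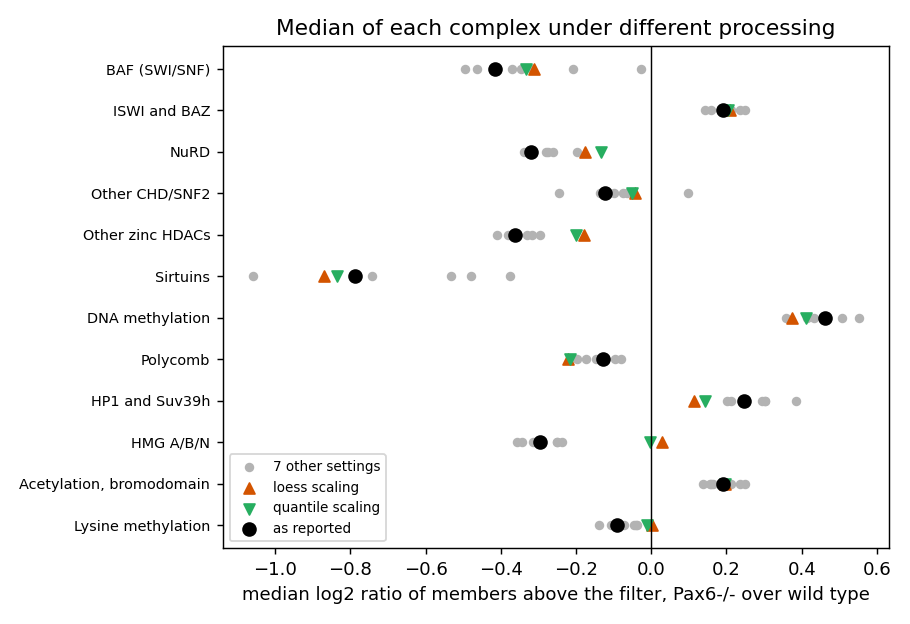
Median log2 ratio of Pax6-/- over wild type (horizontal) of the members of each complex above the signal filter, as reported (black), after loess (triangles up) or quantile scaling (triangles down) and under 7 other settings (grey). Medians of NuRD and of the other zinc HDACs stay below 0 and those of the DNA methylation, HP1 and Suv39h, ISWI and acetylation groups stay above it in all settings shown, while the HMG median moves from -0.30 to 0.03 after loess scaling.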

How the data were processed

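Both arrays come as the authors' deposited intensities on a linear scale, with 1 value for each probe set. The submitters' processing notes name MAS5, Affymetrix's summary method, without the version or scaling target. The 2% trimmed mean of the signals was 500.2 on either array, and the medians were 237.3 (wild type) and 283.7 (mutant). Of 12488 probe sets, 10855 had 1 symbol in GEO's platform annotation, 396 had several and 1237 had none, and only the first kind was used.

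To every signal 81.5, the 25th percentile, was added. Log2 ratios were then centred, a shift of 0.05, and probe sets with a mean log2 signal at or above the 40th percentile were kept. Each gene was read from the probe set of highest mean log2 signal. Members, complex lists and the naming rule (2-fold members, extremes and brightest gene of each complex, genes with several probe sets, genes with only 1 array above the filter) were chosen with earlier results of these data known, and Chd1l was assigned to its group later.

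The alternatives left out the centring, the filter or the pseudocount (with a floor at the 1st percentile), raised the pseudocount to the 50th or the filter to the 60th percentile, scaled by quantiles or by loess (fraction 0.4, 3 iterations), averaged a gene's probe sets, dropped identifiers with a suffix, or set thresholds of 1.5-fold and 3-fold. Calculations ran in Python 3.11.15 with pandas 2.3.3, numpy 2.4.6, statsmodels 0.14.6, scipy 1.17.1 and matplotlib 3.10.9, and were tested on simulated arrays. Precision is limited by the number of arrays and by the disagreement between probe sets.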

Additional observations from a re-analysis of the deposited data

How the results depend on the processing

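Counts of chromatin genes past 2-fold were small and moved with the settings. The number at least 2-fold lower, 2 as reported, was 1 without centring, 0 with the 50th-percentile pseudocount or the 60th-percentile filter, and 4 with no filter. The number at least 2-fold higher, 0 as reported, was 2 without a pseudocount (Ezh1 and Kdm1a). At 1.5-fold the counts were 4 higher and 8 lower, and at 3-fold 0 and 0. The median of all members moved to 0.018 after loess scaling, and that of BAF to -0.028 with probe sets without suffix. The other 124 of 126 recomputed medians moved by less than the error that the technical spread gives a median. That error treats genes as independent and is wide for groups of few genes, so it could hardly mark a move there. Within it, the HMG median went from -0.30 to 0.03 after loess scaling. The median of other CHD and SNF2 genes likewise went from -0.12 to 0.10 with averaged probe sets. The cause of the moves was not tested. Of 63 genes above the filter, 51 kept their sign under all 9 alternatives that measured them and 12 did not, among them Baz1b, Hdac6, Hmgb3, Mbd1 and Mbd3. Over all genes, loess scaling moved the 2-fold split from 282 higher and 305 lower to 204 and 370. No paired analysis was possible because each genotype had 1 array.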
